A study of Arabidopsis thaliana with 28 samples.

Results

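The comparison described here set Arabidopsis thaliana seedlings of the mutant aba2-1, given 10 nM abscisic acid (ABA) for 3 h, against untreated seedlings of the wild type Col-0. It holds 5 of the 28 sequenced samples: 3 of aba2-1 10 nM ABA and 2 of Col-0 mock, taken by their labels. The question it addresses is how far a short, low dose of the hormone brings a plant that makes little ABA to the level of the untreated wild type, gene by gene. Beside most results stand the 3 samples of aba2-1 mock, which give the starting level of the mutant. For genes given without the untreated mutant, the values shown do not tell a genotype difference from a response to ABA. Where the genotypes are compared, the 2 samples of Col-0 10 nM ABA are added. All of these seedlings were raised on MS plates for 7 days and then kept in liquid MS for 3 h, with or without ABA, per the labels' protocols; the age label reads 10 days after germination (DAG), and the sources do not say which holds. The mutation is carried in the germ line, so every cell of the seedling has it. The labels do not say how many seedlings made a sample or whether each replicate was a culture of its own; p-values therefore cover only sample-to-sample spread, part or all of which may be technical. RNA of the whole seedling was sequenced, so fewer cells of a type and less RNA per cell cannot be told apart.

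ABA is the hormone by which plants answer water deficit: it builds up in drying tissue, closes stomata and switches on protective genes. ABA2 encodes the short-chain dehydrogenase that makes abscisic aldehyde, the last intermediate before ABA, and aba2 mutants are short of the hormone and wilt readily. ABA binds receptors of the PYR/PYL family, which then hold back clade A protein phosphatases (PP2Cs); this frees SnRK2 kinases to activate transcription factors of the ABF class, which bind promoter elements called ABREs.

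The values are normalised read counts, that is, reads per locus divided by 1 size factor per library. Reads per library ran from 11989417 to 30942766 over the 28 libraries. The library aba2-1 10 nM ABA replicate 3 stood apart: 76.1% of its reads lay in 12 ribosomal RNA rows, against 1.49% to 10.5% in the other 27. It had 4249877 other reads, so 1 read in it is worth 4.41 units, while the other 4 libraries of the comparison had 15457546 to 18401236 other reads. Counts of loci called different in the main comparison, in the mutant's response to ABA and in most gene families are therefore given with and without that library. For gene lists, named calls lost without it are given gene by gene. Markers of leaf photosynthesis and of roots were present in every library, and the summed level of the 7 seed and embryo markers in the table was at most 15.46 units in Col-0 mock and in the mutant with and without 10 nM ABA; 3 of them (CRA1, CRU3 and OLEO2) were tested. The replicates of Col-0 mock differed by a median of 0.109 on the log2 scale over loci with a mean of 50 units or more. Pairs within aba2-1 10 nM ABA differed by 0.13 to 0.21, and pairs between the 2 groups by 0.161 to 0.206. Without aba2-1 10 nM ABA replicate 3, the 1 treated pair left differed by 0.13 and pairs between the groups by 0.161 to 0.206.

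After 10 nM ABA the mutant lay within 2-fold of the untreated wild type at most loci, and 337 loci of 21023 tested (1.60%) were called different. Of these, 192 (0.913%) were higher and 145 (0.690%) lower than in Col-0 mock. They were called with limma at a Benjamini-Hochberg adjusted p under 0.05 on log2(value + 1), so fold changes of low genes are understated. The called difference was at least 2-fold at 80 of the higher and 66 of the lower loci, and over all tested loci the whole 95% interval lay beyond 2-fold above at 33 and below at 23. At all 337 called loci the values of the 2 groups did not overlap, which also held for 37.2% of all tested loci (19.1% higher and 18.1% lower). Before ABA the mutant differed from Col-0 mock at 124 loci (0.590%), 65 higher (0.309%) and 59 lower (0.281%). The response of the mutant itself, aba2-1 10 nM ABA against aba2-1 mock, covered 205 loci (0.975%), 106 higher (0.504%) and 99 lower (0.471%). It covered 141 loci without aba2-1 10 nM ABA replicate 3. These comparisons share samples with the main one, so their values are set side by side and no overlap between them is tested. A call shared between them is no separate support. Without aba2-1 10 nM ABA replicate 3 the main comparison gave 216 calls, 119 higher and 97 lower, and 187 of the 337 were among them. It gave 46 calls without Col-0 mock replicate 1 and 90 without Col-0 mock replicate 2, where the lone wild-type sample is assumed to vary like the other groups.

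**Figure D1:**
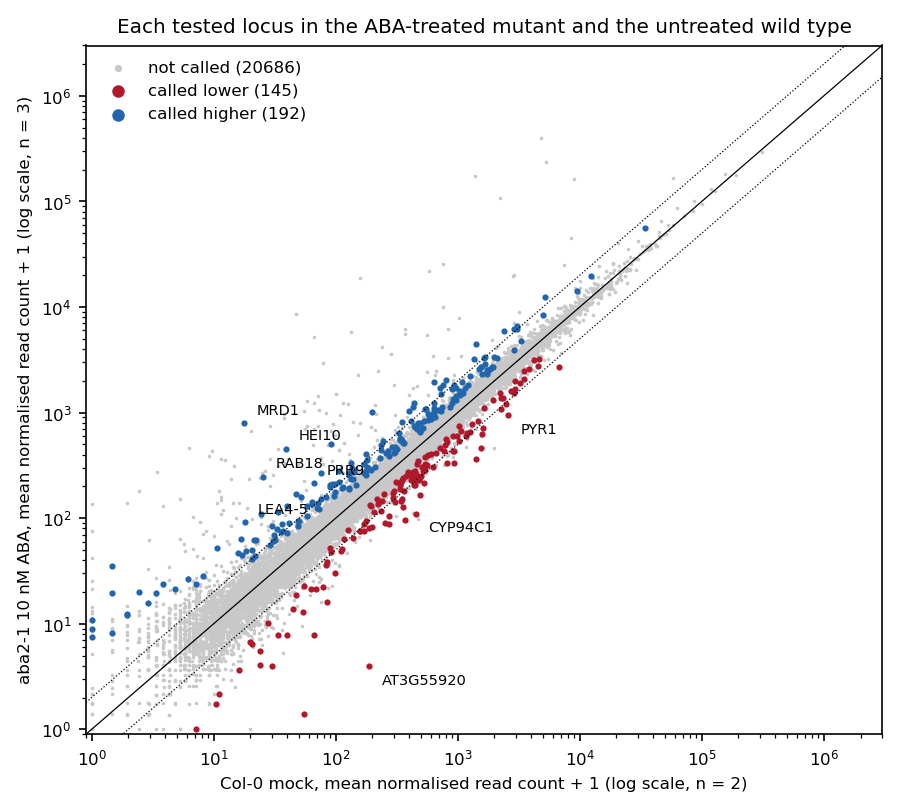
Mean normalised read count plus 1 of each of the 21023 tested loci in Col-0 mock (x axis, 2 samples) and aba2-1 10 nM ABA (y axis, 3 samples), both on log scales; the solid line marks equal levels and the dotted lines 2-fold. Blue points are the 192 loci called higher and red points the 145 called lower, with a fitted difference of at least 2-fold at 80 and 66 of them. The grey points far above the line near the top were not called. The tested loci include ribosomal RNA rows, which held 76.1% of the reads of aba2-1 10 nM ABA replicate 3.

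A p over the threshold does not show that levels are alike, so each locus was also placed by the 95% interval of its log2 difference. That interval lay wholly within 2-fold at 16620 loci (79.1%), or 16000 without aba2-1 10 nM ABA replicate 3. Of the 16620, 93 were called as different by a smaller amount. A further 4159 loci (19.8%) were neither called nor placed within 2-fold. For aba2-1 mock against Col-0 mock the interval lay within 2-fold at 17040 loci (81.1%). The share depended on the level: it was 1.36% of 959 loci with a mean under 10 units, 37.7% from 10 to 50, 84.1% from 50 to 200, 93.8% from 200 to 1000 and 93.3% of 3617 loci at 1000 and over. A low gene that was not called is therefore seldom one shown to match the wild type. The median size of the difference over all loci was 0.174 on the log2 scale in the main comparison, 0.141 between the mock groups and 0.117 for the response of the mutant.

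**Figure D2:**
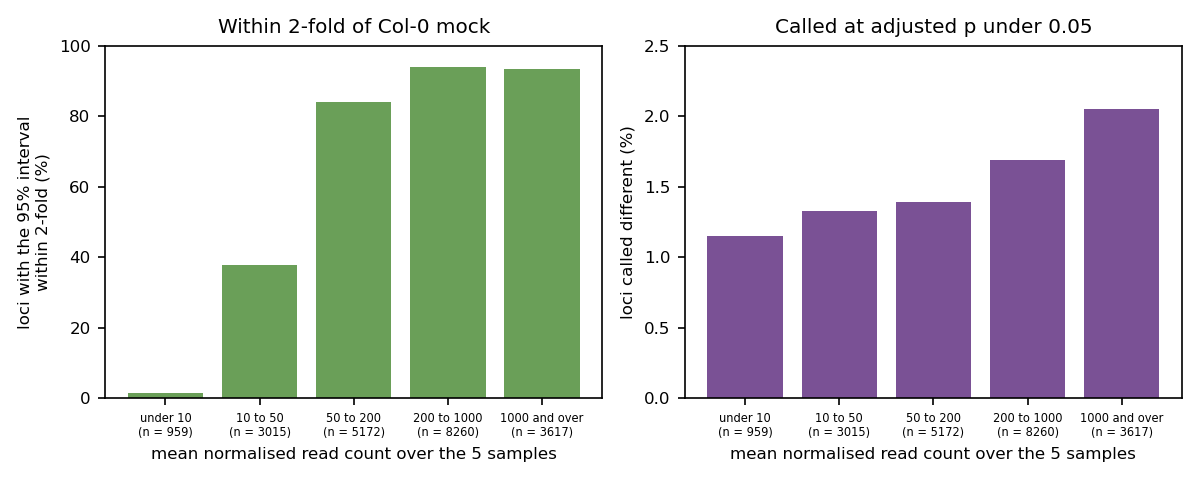
Share of tested loci whose 95% interval lay within 2-fold of Col-0 mock (left, percent) and share called different (right, percent), by mean normalised read count over the 5 samples. The left bars climb from 1.36% to over 93% while the right bars stay between 1.15% and 2.05%.

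Of 26 tested members of a list of ABA-induced markers, 5 were higher than in Col-0 mock and none was lower. Over all tested loci 0.913% were higher and 0.690% lower. The list's median log2 difference was 0.38, against -0.00345 over all loci; the median was -0.36 for the untreated mutant against Col-0 mock and 0.74 for the treated against the untreated mutant. The 95% interval lay within 2-fold for 11 members. The 5 called higher were RAB18, RD29B, LEA4-5, EM6 and MYB102. The count was 3 without Col-0 mock replicate 1 and 3 without Col-0 mock replicate 2.

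RAB18 (AT5G66400, chr5:26518277-26519447) encodes a dehydrin, a hydrophilic protein that accumulates in dehydrating cells. Its normalised read count was 16.4 and 32.1 in Col-0 mock, 13.5, 18.1 and 17.0 in the untreated mutant, and 318, 194 and 225 in aba2-1 10 nM ABA. The treated mutant was above every untreated library of either genotype. The log2 difference from Col-0 mock was 3.33 (SE 0.28, limma adjusted p = 2.7e-07), a 10.1-fold rise, and it held with each library left out in turn. In Col-0 the same dose gave 249 and 299 units, so the wild type also left its own mock level. The mock groups did not differ by the test (log2 -0.49, limma adjusted p = 0.77).

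RD29B (AT5G52300), a hydrophilic stress protein long used as an ABA reporter, was 10.6 and 8.49 in Col-0 mock, 9.34, 7.24 and 4.54 in the untreated mutant, and 48.8, 40.3 and 66.2 after 10 nM ABA, with no overlap. It was 4.92-fold higher than in Col-0 mock (95% interval of the log2 difference 1.33 to 3.27, limma adjusted p = 0.0097). LEA4-5 (AT5G06760), a late embryogenesis abundant protein, was 19.3 and 15.1 in Col-0 mock, 6.23, 18.1 and 11.3 in the untreated mutant, and 102, 85.3 and 83.9 after ABA, a log2 difference of 2.33 (limma adjusted p = 0.0022). EM6 (AT2G40170), a protein of the same broad class best known from seeds, had 1 and 2 reads in the Col-0 mock libraries, so only its values are given: 0.966 and 1.89 units there, and 17.0, 17.8 and 22.1 after ABA (limma adjusted p = 0.00097). MYB102 (AT4G21440), a MYB transcription factor, had 1 and 0 reads in Col-0 mock. It stood at 11.4, 18.1 and 3.40 units in aba2-1 mock and 60.2, 15.4 and 26.5 after ABA (limma adjusted p = 8.1e-05), and the mutant was already above the wild type before treatment (limma adjusted p = 0.007). With each library left out in turn, MYB102 kept its call. The adjusted p reached 0.052 for EM6 without Col-0 mock replicate 1 and 0.065 for LEA4-5 without Col-0 mock replicate 2. For RD29B it was 0.11 and 0.16 when Col-0 mock replicate 1 or 2 was dropped.

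The 250 bases before the annotated start of RAB18, RD29B and LEA4-5 are printed because these ABA-induced genes were called higher than in the wild type and their promoters hold repeated copies of the ABRE core. They were chosen after the values were seen; the windows of EM6, with 3 matches, and MYB102, with 1, are not printed. The sequences are RefSeq's, TAIR10.1 build, written 5′ to 3′ on the strand of the gene, with each match to ACGTGT or ACGTGG on either strand in capitals (ACACGT and CCACGT on the opposite strand). The windows are chr5:26519448-26519697 on the minus strand for RAB18, chr5:21236771-21237020 on the plus strand for RD29B and chr5:2090431-2090680 on the minus strand for LEA4-5.
RAB18: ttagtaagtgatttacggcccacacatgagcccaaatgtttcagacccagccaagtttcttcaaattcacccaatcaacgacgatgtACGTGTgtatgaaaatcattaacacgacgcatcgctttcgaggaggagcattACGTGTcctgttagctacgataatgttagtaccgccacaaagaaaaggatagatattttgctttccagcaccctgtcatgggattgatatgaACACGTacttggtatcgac
RD29B: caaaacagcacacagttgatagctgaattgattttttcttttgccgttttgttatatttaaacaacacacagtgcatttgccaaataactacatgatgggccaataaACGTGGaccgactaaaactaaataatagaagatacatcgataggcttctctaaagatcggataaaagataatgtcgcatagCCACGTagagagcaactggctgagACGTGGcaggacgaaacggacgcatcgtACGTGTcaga
LEA4-5: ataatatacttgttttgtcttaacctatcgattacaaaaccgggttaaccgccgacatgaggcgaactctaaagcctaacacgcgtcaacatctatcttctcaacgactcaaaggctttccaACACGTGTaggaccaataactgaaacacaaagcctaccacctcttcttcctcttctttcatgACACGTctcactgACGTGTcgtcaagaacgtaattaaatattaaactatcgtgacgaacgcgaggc

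RAB18 held 3 matches, RD29B 4 and LEA4-5 4, where the LEA4-5 run of 8 capitals is an overlapping pair counted on both strands. Over all 20849 tested loci with a window, 17.1% held at least 1 match. The share was 23.4% of the 192 called higher and 18.6% of the 145 called lower, and 13 of the 26 tested ABA-induced markers held one. With 2 or more matches the shares were 8.85% of the called higher, 3.45% of the called lower and 5.92% of all loci. A match is only a run of letters and shows no binding.

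Among the other ABA-induced markers, KIN1 was low in the untreated mutant and within 2-fold of Col-0 mock after ABA. KIN1 (AT5G15960), a small cold- and ABA-inducible protein, was 497 and 654 in Col-0 mock, 103, 103 and 116 in the untreated mutant, and 404, 546 and 410.5 after ABA. The treated libraries overlapped the wild type and all lay above the untreated mutant. Its log2 difference from Col-0 mock was -2.40 before ABA (limma adjusted p = 2.2e-05) and -0.34 after it, with a 95% interval from -0.90 to 0.21, which lies within 2-fold. KIN1 has a near-identical neighbour, COR6.6, between which reads could be split, and COR6.6 differed by 0.57 (interval -0.05 to 1.18). The dehydrins ERD10 and LTI30 differed from Col-0 mock by 0.10 (interval -0.25 to 0.45) and 0.07 (interval -0.35 to 0.49). LTP3, a lipid transfer protein, stayed low in value: 53.1 and 61.3 in Col-0 mock, 16.6, 15.7 and 14.8 in the untreated mutant and 26.1, 34.4 and 22.1 after ABA. Its difference after ABA was -1.05 (limma adjusted p = 0.11) and its interval, -1.72 to -0.38, was not within 2-fold.

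In the signalling chain 3 phosphatase genes were called higher and 2 receptor genes lower. The limits of these calls are given with each gene. Clade A PP2Cs are the phosphatases that block ABA signalling and whose genes ABA induces. Of 7 tested, 3 were higher than in Col-0 mock and none lower, against 0.913% and 0.690% of all loci. The list's median log2 difference was 0.48. ABI1 was 1265 and 1176 in Col-0 mock, 1241, 1337 and 1374 in the untreated mutant, and 1728, 1834 and 1871 after ABA. Its log2 difference was 0.57 (SE 0.10, limma adjusted p = 0.0029). ABI2 differed by 1.13 (limma adjusted p = 0.0022) and HAB1 by 0.76 (limma adjusted p = 0.0076), both without overlap. HAB2 was at 0.48 (limma adjusted p = 0.12). Before ABA no PP2C was called against Col-0 mock. In the untreated mutant ABI2 (93.4, 115 and 85.1) and HAB1 (698, 788 and 751) were already above both Col-0 mock libraries. Those held 61.8 and 64.1 for ABI2 and 612.5 and 533 for HAB1. In the response of the mutant, ABI1 (log2 0.46, limma adjusted p = 0.0081) and HAI1 (1.41, limma adjusted p = 0.038) were called. ABI2 (0.51, limma adjusted p = 0.25) and HAB1 (0.38, limma adjusted p = 0.3) were not. What follows returns to the treated mutant against Col-0 mock. Without Col-0 mock replicate 1 the adjusted p was 0.061 for ABI2 and 0.058 for HAB1, and without Col-0 mock replicate 2 it was 0.09 for ABI1 and 0.18 for HAB1.

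Of 9 tested PYR/PYL receptors, 2 were lower and none higher, against 0.690% and 0.913% of all loci. The list's median log2 difference was -0.39. PYL5 was 2679 and 2775 in Col-0 mock, 2389, 2655 and 2343 in the untreated mutant, and 1467, 1915 and 1421 after ABA. The treated libraries lay below all 5 untreated ones, and the log2 difference was -0.78 (SE 0.20, limma adjusted p = 0.046). That call ended without any one of 4 libraries, with an adjusted p of 0.31 and 0.32 when Col-0 mock replicate 1 or 2 was dropped, and 0.12 and 0.14 when this was done for aba2-1 10 nM ABA replicate 1 or 3. PYR1 was 2414 and 2748 in Col-0 mock, 1602, 1402 and 1584 in the untreated mutant, and 877, 922 and 1059 after ABA, a log2 difference of -1.44 (limma adjusted p = 0.013). The table has a further row for the PYR1-CA transgene of other lines in the series, which took 506 and 676 units in Col-0 mock and 768 to 1221 after ABA although these plants do not carry it. The split of reads between these rows therefore moved with the groups. Summed over both rows the level was 3172 ± 356 (SD, n = 2) in Col-0 mock, 2538 ± 182 (n = 3) in the untreated mutant and 1904 ± 211 (n = 3) after ABA, and the difference from Col-0 mock shrank to -0.74 on the log2 scale. The PYR1 call did not survive the loss of Col-0 mock replicate 1 (adjusted p = 0.13) or 2 (adjusted p = 0.18). PYL4 and PYL6 had differences of -0.43 (limma adjusted p = 0.16) and -0.76 (limma adjusted p = 0.32). PYL10 and PYL13 were not analysed here.

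Among 10 tested SnRK2 kinases and ABA transcription factors, ABF3 was called, and it was higher, where 1.60% of all tested loci were called. ABF3 (AT4G34000), a basic leucine zipper factor that binds ABREs, was 666 and 610.1 in Col-0 mock, 804, 863 and 920.0 in the untreated mutant, and 1264, 1294 and 1178 after ABA. The 3 groups stand in that order with no overlap. The log2 difference was 0.96 (SE 0.12, limma adjusted p = 0.00014) and it held with each library left out. The kinase gene OST1 differed by 0.34 (limma adjusted p = 0.27), and the interval lay within 2-fold for 9 of the 10 members, ABI5 included (0.08, interval -0.36 to 0.52).

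No ABA biosynthesis gene of 6 tested was called, and 4 were within 2-fold. With 1.60% of all tested loci called, a list of 6 is too short for the lack of calls to set it apart. ABA2 itself was 185.5 and 221 in Col-0 mock, 208, 186 and 205 in the untreated mutant, and 195, 204 and 203 after ABA. The 3 groups overlapped, with a log2 difference of -0.01 (interval -0.25 to 0.23). Since a changed base need not alter the amount of transcript, this level does not check the genotype label. NCED3, the dioxygenase whose induction drives ABA synthesis in drought, was 40.6 and 47.2 in Col-0 mock and 80.6, 64.0 and 66.2 after ABA (log2 difference 0.66, limma adjusted p = 0.34). Of 9 genes of ABA breakdown, release and transport, the plasma membrane ABA importer ABCG40 was higher: 213 and 182 in Col-0 mock, 569, 652 and 383 in the untreated mutant, and 1700, 415 and 905 after ABA. The treated libraries differ from each other by more than those of the other groups, and replicate 2 lies within the range of the untreated mutant. Its log2 difference was 2.12 (SE 0.48, limma adjusted p = 0.023). The call did not survive the loss of Col-0 mock replicate 1 (0.2) or 2 (0.24) or of aba2-1 10 nM ABA replicate 1 (0.088) or 3 (0.061), nor a fit to the compared groups alone (0.32). CYP707A1, which inactivates ABA, was 137 and 163 in Col-0 mock and 183, 210 and 229.5 after ABA, with a log2 difference of 0.46 (limma adjusted p = 0.31).

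**Figure D3:**
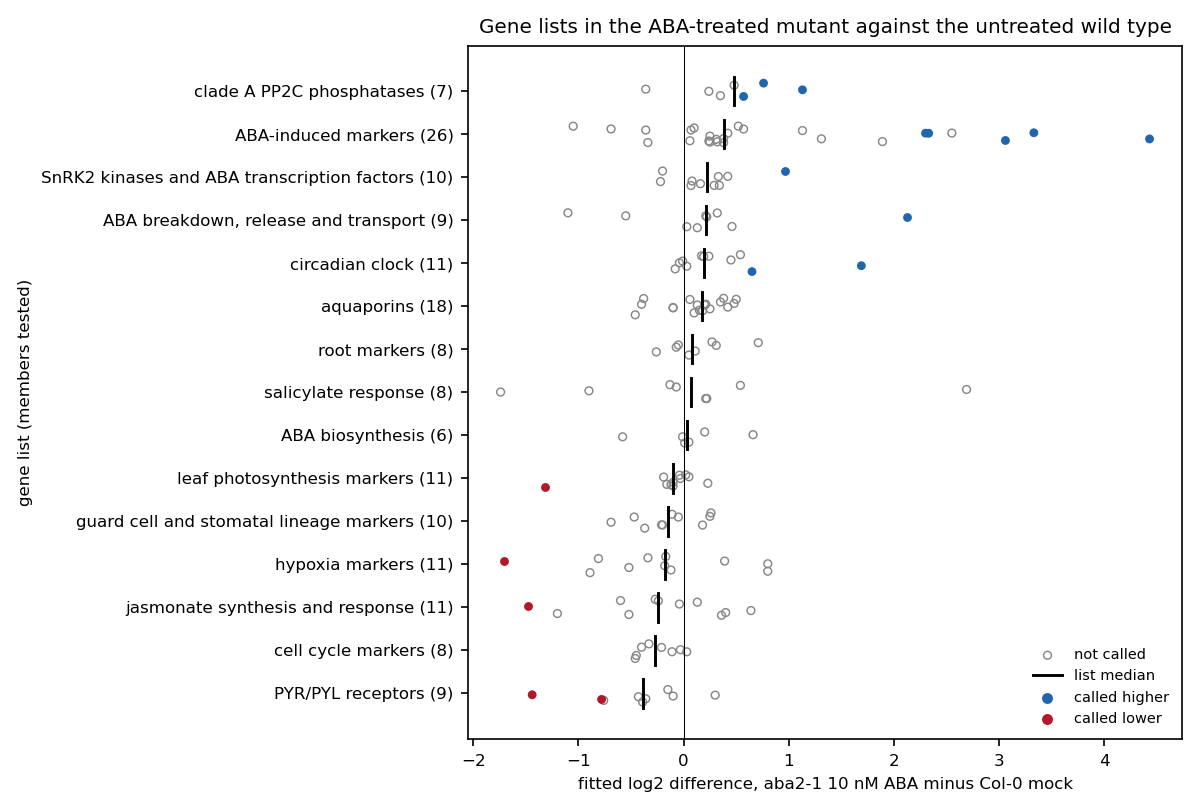
Fitted log2 difference (aba2-1 10 nM ABA minus Col-0 mock) of each tested member of 15 gene lists; filled points were called (blue higher, red lower), open points were not, and black bars are list medians. Of the lists drawn, the PP2C list has the highest median, 0.48, and the receptor list the lowest, -0.39; the seed and embryo list, with 3 tested members and a median of -0.57, is not drawn, and the 5 called ABA-induced markers lie above 2.

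The largest rises over Col-0 mock, among loci with a mean of at least 5 CPM (counts scaled to library size), were MRD1, HEI10, RAB18, AT5G16980, ABCG40, GSTU4, UGT76E12, PRR9, AT5G42530 and UGT75B1. Of these, 6 were also called higher in aba2-1 mock: MRD1, HEI10, AT5G16980, GSTU4, UGT76E12 and UGT75B1. Both comparisons use the same Col-0 mock libraries, so the second call is a description and no separate support. MRD1 (AT1G53480, chr1:19963047-19964712) was 11.6 and 21.7 in Col-0 mock, 859.5, 829 and 796 in the untreated mutant, and 823, 826 and 741.5 after ABA. HEI10 (AT1G53490, chr1:19963267-19966952), a RING protein that promotes meiotic crossovers, was 30.0 and 47.2 in Col-0 mock, 303, 393 and 408 in the untreated mutant, and 438, 449 and 477 after ABA. The log2 difference was 5.56 for MRD1 (SE 1.07, limma adjusted p = 0.0097) and 3.56 for HEI10 (SE 0.38, limma adjusted p = 1.9e-05), and neither was called in the response of the mutant to ABA (log2 -0.06, interval -2.07 to 1.96, and 0.31, interval -0.39 to 1.02). The treated HEI10 libraries all lie above those of the untreated mutant. MRD1 was not constant in the wild type, where the Col-0 10 nM ABA libraries gave 177 and 6.58. The annotated spans of these genes overlap each other and AT1G07887, and the sources used here do not say whether reads were counted by strand. They lie 473.3 and 473.5 kb from ABA2. Within 1 Mb of ABA2, 5 of 390 tested loci were called (1.28%), against 1.61% of the 20633 others; for the untreated mutant against Col-0 mock it was also 5 (1.28%), against 0.577% of the others. Leaving out Col-0 mock replicate 1 or 2 took the adjusted p of MRD1 to 0.19 or 0.076, while HEI10 kept its call in each case.

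The clock gene PRR9 (AT2G46790), a pseudo-response regulator of the morning, rose with ABA instead. It was 78.3 and 51.9 in Col-0 mock, 75.8, 99.0 and 77.1 in the untreated mutant, and 249, 152 and 238 after ABA. The untreated genotypes overlap and the treated mutant lies above both. Its log2 difference from Col-0 mock was 1.69 (SE 0.21, limma adjusted p = 0.00011), with every library left out in turn the call held, and Col-0 10 nM ABA stood at 180 and 211.5. GI, a clock component with a peak late in the day, was 649 and 629 in Col-0 mock and 986, 888 and 1152 after ABA (log2 difference 0.65, limma adjusted p = 0.015). GI lost its call without Col-0 mock replicate 1 or 2 (both 0.18) or aba2-1 10 nM ABA replicate 3 (0.075). Of the 11 clock genes tested these 2 were called and 9 lay within 2-fold, GI among them, while ELF4 was neither (0.45, interval -0.39 to 1.29). Within 2-fold were also CCA1 (0.03, interval -0.28 to 0.34) and LHY (-0.04, interval -0.37 to 0.28). For GI the mock groups differed by -0.03 and the response of the mutant was 0.67 (limma adjusted p = 0.0058). The clock list's median was 0.19, and 1.60% of all tested loci were called. The labels give no time of harvest.

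AT5G16980, annotated as a zinc-binding dehydrogenase family protein, was 87.0 and 94.3 in Col-0 mock, 322, 542 and 252 in the untreated mutant, and 720.0, 277 and 508 after ABA, a log2 difference of 2.35 (limma adjusted p = 0.00012). GSTU4, a glutathione transferase, was 70.5 and 80.2 in Col-0 mock, 248, 200.3 and 161 in the untreated mutant, and 305.5, 181 and 313 after ABA, a difference of 1.77 (limma adjusted p = 0.00053). In both cases every mutant library, treated or not, lay above both wild-type ones, and both calls held with each library left out; with the compared groups alone AT5G16980 had an adjusted p of 0.077. UGT76E12 and UGT75B1, which attach sugars to small molecules, differed by 1.72 (limma adjusted p = 0.0085) and 1.61 (limma adjusted p = 0.011). AT5G42530 differed by 1.63 (limma adjusted p = 0.02). When Col-0 mock replicate 1 or 2 was dropped, the adjusted p was 0.062 and 0.19 for UGT76E12, 0.2 and 0.091 for UGT75B1, and 0.41 and 0.052 for AT5G42530. It was 0.054 for UGT75B1 and 0.052 for AT5G42530 without aba2-1 10 nM ABA replicate 1, and 0.074 for AT5G42530 without replicate 2. With the compared groups alone it was 0.16 for UGT76E12, 0.11 for UGT75B1 and 0.069 for AT5G42530.

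The tau class of glutathione transferases, enzymes that couple glutathione to toxic compounds, was looked at as a family after these values were seen. Over all tested loci 0.913% were higher and 0.690% lower, and with the spread weighted by group 648 were higher instead of 192. Of 25 tested members of the class 10 were higher than in Col-0 mock and none lower, and the median log2 difference was 0.45. The count was 4 without Col-0 mock replicate 1, 3 without Col-0 mock replicate 2 and 7 without aba2-1 10 nM ABA replicate 3, and between 9 and 13 with the other scalings and tests tried. GSTU24 was 1341 and 1390 in Col-0 mock, 1887, 2346 and 2006 in the untreated mutant, and 3796, 2887 and 2997 after ABA, with a log2 difference of 1.23 (SE 0.15, limma adjusted p = 0.00011). Each group lay above the last, with no overlap. GSTU25 was 1206 and 1318 in Col-0 mock, 1352, 1340 and 1356 in the untreated mutant, and 2213, 2379 and 2043 after ABA (difference 0.81, limma adjusted p = 0.0049). Its excess over the wild type is thus seen after treatment, and the mock groups differed by 0.1. GSTU11 shows the other order, with 20.3 and 26.4 in Col-0 mock, 150.5, 155 and 63.5 in the untreated mutant and 151, 78.2 and 97.1 after ABA. Several members lie in tandem and share sequence, so the division of reads between them is uncertain. GSTU24 kept its call with each library left out. GSTU25 had an adjusted p of 0.14 without Col-0 mock replicate 1, and GSTU11, at 0.032 with all libraries, had 0.35 and 0.17 when Col-0 mock replicate 1 or 2 was dropped, and 0.11 and 0.064 when this was done for aba2-1 10 nM ABA replicate 1 or 3.

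Of 52 UDP-glycosyltransferases tested, 7 were higher and 1, UGT71C2, lower (median 0.26), against 0.913% and 0.690% of all loci. None was called without Col-0 mock replicate 1, and none without Col-0 mock replicate 2. There were 3, 6 and 5 higher, and none lower, without aba2-1 10 nM ABA replicate 1, 2 or 3. UGT84A3, which glucosylates phenolic acids, was 766 and 679 in Col-0 mock, 1024, 1215 and 965 in the untreated mutant and 1858, 1362 and 1293 after ABA. It differed by 1.04 (limma adjusted p = 0.0056), with 0.06 and 0.12 when Col-0 mock replicate 1 or 2 was left out. UGT71C2, at -0.60 (limma adjusted p = 0.049), lost its call with any library left out, at adjusted p between 0.062 and 0.49, and had 0.06 with the compared groups alone.

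**Figure D4:**
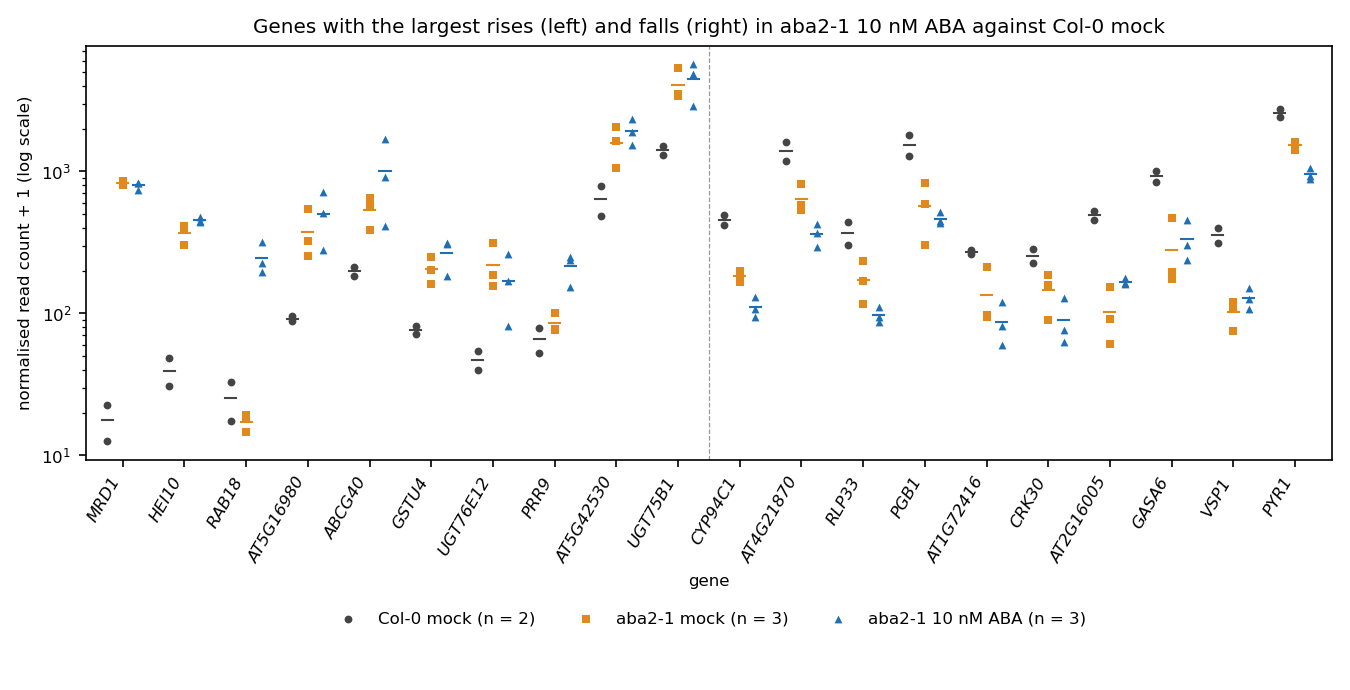
Normalised read count plus 1 (log scale) of the 10 genes with the largest rises (left of the dashed line) and the 10 with the largest falls (right) in each sample of Col-0 mock (circles), aba2-1 mock (squares) and aba2-1 10 nM ABA (triangles); short bars are group means. RAB18 and PRR9 are high in the treated mutant and overlap the wild type in the untreated one, while MRD1 and HEI10 are high in both mutant groups.

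The largest falls were CYP94C1, AT4G21870, RLP33, PGB1, AT1G72416, CRK30, AT2G16005, GASA6, VSP1 and PYR1. For PYR1 the limit given above holds, as its reads were split with a transgene row. CYP94C1 (AT2G27690), a cytochrome P450 that inactivates jasmonoyl-isoleucine, the active jasmonate, was 494 and 415 in Col-0 mock, 196, 189.5 and 164.5 in the untreated mutant, and 129.5, 107 and 92.7 after ABA. The mutant was below the wild type before ABA and lower still in value after it, with no overlap among the 3 groups. The log2 difference from Col-0 mock was -1.30 before (limma adjusted p = 0.043) and -2.05 after (SE 0.30, limma adjusted p = 0.00054); the step between them, -0.75, was not called (limma adjusted p = 0.34). AT4G21870, an HSP20-like chaperone, showed the same order: 1180 and 1620 in Col-0 mock, 808, 578 and 532 in the untreated mutant, and 293, 368.5 and 428 after ABA (difference -1.94, limma adjusted p = 0.00014). Both calls held with each library left out.

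RLP33, a receptor-like protein, was 437 and 302 in Col-0 mock, 167, 115 and 231 in the untreated mutant and 109, 85.3 and 92.7 after ABA, a log2 difference of -1.92 (limma adjusted p = 0.00072). CRK30, a cysteine-rich receptor-like kinase, differed by -1.57 (limma adjusted p = 0.0061), and AT1G72416, a DnaJ-domain protein, by -1.69 (limma adjusted p = 0.0094). AT2G16005, annotated with an MD-2-related lipid recognition domain, was 521 and 455.5 in Col-0 mock, 154, 60.3 and 89.6 in the untreated mutant, and 177, 162 and 159 after ABA (difference -1.55, limma adjusted p = 0.0017). GASA6, a gibberellin-regulated peptide linked to cell elongation, was 841.5 and 1011 in Col-0 mock, 465, 174 and 195 in the untreated mutant, and 301, 453 and 238 after ABA (difference -1.53, limma adjusted p = 0.0064). In AT2G16005 and GASA6 both mutant groups lay below both wild-type libraries. Without Col-0 mock replicate 1 the adjusted p was 0.056 for RLP33, 0.18 for CRK30, 0.17 for AT1G72416, 0.064 for AT2G16005 and 0.065 for GASA6. Without Col-0 mock replicate 2 it was 0.1 for AT1G72416 and 0.14 for GASA6, and without aba2-1 10 nM ABA replicate 1 it was 0.052 for AT1G72416. With the compared groups alone GASA6 had 0.06.

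VSP1, a vegetative storage protein that jasmonate induces, stayed low: 396 and 312 in Col-0 mock, 119, 73.6 and 109 in the untreated mutant, and 149, 126 and 106 after ABA (log2 difference -1.48, limma adjusted p = 0.013). Its neighbour and close copy VSP2 was 182 and 125 in Col-0 mock, 35.3, 16.9 and 20.4 in the untreated mutant, and 77.2, 67.5 and 53.0 after ABA, so that its difference went from -2.66 (limma adjusted p = 0.00019) to -1.20 (limma adjusted p = 0.087). Reads could be split between them. VSP1 was the 1 member called among 11 jasmonate genes, whose median was -0.24; MYC2, the master regulator, differed by 0.36 (limma adjusted p = 0.36). The VSP1 call did not survive the loss of Col-0 mock replicate 1 (0.28) or 2 (0.079) or aba2-1 10 nM ABA replicate 3 (0.06). Among 8 salicylate response genes none was called, where 1.60% of all tested loci were. PR1, a defence marker, had no reads in Col-0 mock, and 18.2, 13.0 and 0 units after ABA; without aba2-1 10 nM ABA replicate 3, the library with 0, it was called higher (limma adjusted p = 0.012, range over the leave-one-out fits 0.012 to 0.67).

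PGB1 (AT2G16060), a phytoglobin that scavenges nitric oxide in low oxygen, was 1804 and 1283 in Col-0 mock, 831, 300.5 and 584 in the untreated mutant, and 514, 434 and 446 after ABA. Its log2 difference was -1.71 (SE 0.41, limma adjusted p = 0.032), but that call was lost with any 1 library left out (adjusted p 0.055 to 0.4). It was the 1 hypoxia marker of 11 called, where 1.60% of all tested loci were called. The list as a whole had a median of -0.70 in the untreated mutant and -0.18 after ABA. The value after ABA depended on the wild-type library kept: -0.02 without Col-0 mock replicate 1 and -0.65 without replicate 2. The list's summed level was 4306 to 5565 in Col-0 mock, 2171 to 3202 in the untreated mutant and 3985 to 5162 after ABA. PDC1, a pyruvate decarboxylase of fermentation, was 291 and 285 in Col-0 mock, 166, 110 and 183 in the untreated mutant, and 255.5, 281 and 256 after ABA, a final difference of -0.12 (interval -0.64 to 0.39). LBD41, a hypoxia-induced transcription factor, was 804 and 679 in Col-0 mock, 579, 369 and 441 in the untreated mutant, and 1323, 1690 and 944.5 after ABA (difference 0.80, limma adjusted p = 0.26). Seedlings of all these groups had been kept in liquid medium; oxygen supply was not measured.

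The genes that set the untreated mutant furthest from Col-0 mock are described gene by gene by their level after 10 nM ABA. The 6 largest rises in aba2-1 mock were MRD1, HEI10, UGT76E12, AT5G16980, AT1G12010 and AT3G20380, and the 6 largest falls AT3G53980, CYP71A19, AT2G05510, KIN1, AT2G16005 and ADS1. These were chosen for that difference, which is given as a description. Some movement back towards Col-0 mock is built into the choice, because the aba2-1 mock libraries used for it are not in the comparison after ABA. The Col-0 mock libraries are in both, so part of the chosen difference can also carry over. AT3G20380 went from 36.7 and 40.6 in Col-0 mock to 197, 116 and 109 in aba2-1 mock and to 20.4, 28.4 and 35.3 after ABA. The treated libraries lie below both wild-type ones, with a log2 difference of -0.48 (interval -1.16 to 0.20) that was not called. AT1G12010, an ACC oxidase of ethylene synthesis, was 122 and 154 in Col-0 mock, 528, 630.0 and 438 in the untreated mutant, and 220.3, 349.6 and 287 after ABA. It remained 1.03 above Col-0 mock on the log2 scale (limma adjusted p = 0.016), a call that did not survive the loss of Col-0 mock replicate 1 (0.34) or 2 (0.069) or aba2-1 10 nM ABA replicate 2 (0.075) or 3 (0.051).

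CYP71A19 (AT4G13290), a cytochrome P450, was 364 and 394 in Col-0 mock, 59.2, 72.4 and 70.3 in the untreated mutant, and 308, 229 and 322 after ABA. The treated libraries lay below the wild type and far above the untreated mutant; the difference from Col-0 mock was -0.42 (interval -0.93 to 0.09), within 2-fold. AT3G53980, a lipid transfer-like protein, was 675 and 642 in Col-0 mock, 98.6, 109.8 and 102 in the untreated mutant, and 315, 349.6 and 300.1 after ABA. The difference was -1.04 (interval -1.93 to -0.15, limma adjusted p = 0.29). It was not called, but with the compared groups alone it was (limma adjusted p = 0.0022), so the call depends on the setting. ADS1, a fatty acid desaturase, was 549 and 480.0 in Col-0 mock, 126, 105 and 166 in the untreated mutant, and 196.5, 338 and 243 after ABA (difference -1.02, limma adjusted p = 0.063). Without aba2-1 10 nM ABA replicate 2, ADS1 was called lower (0.039; 0.14 to 0.5 in the other leave-one-out fits). AT2G05510, a glycine-rich protein, was 435 and 525 in Col-0 mock, 103, 92.9 and 65.8 in the untreated mutant, and 179, 276 and 225 after ABA. Its difference of -1.09 was called (limma adjusted p = 0.0076), and lost without Col-0 mock replicate 1 (0.061) or 2 (0.17). So KIN1 and CYP71A19 reached within 2-fold of the wild type, AT2G05510 moved up and stayed called as lower, and MRD1 and HEI10 were not called in the response to ABA, with differences from Col-0 mock after it of 5.56 and 3.56.

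**Figure D5:**
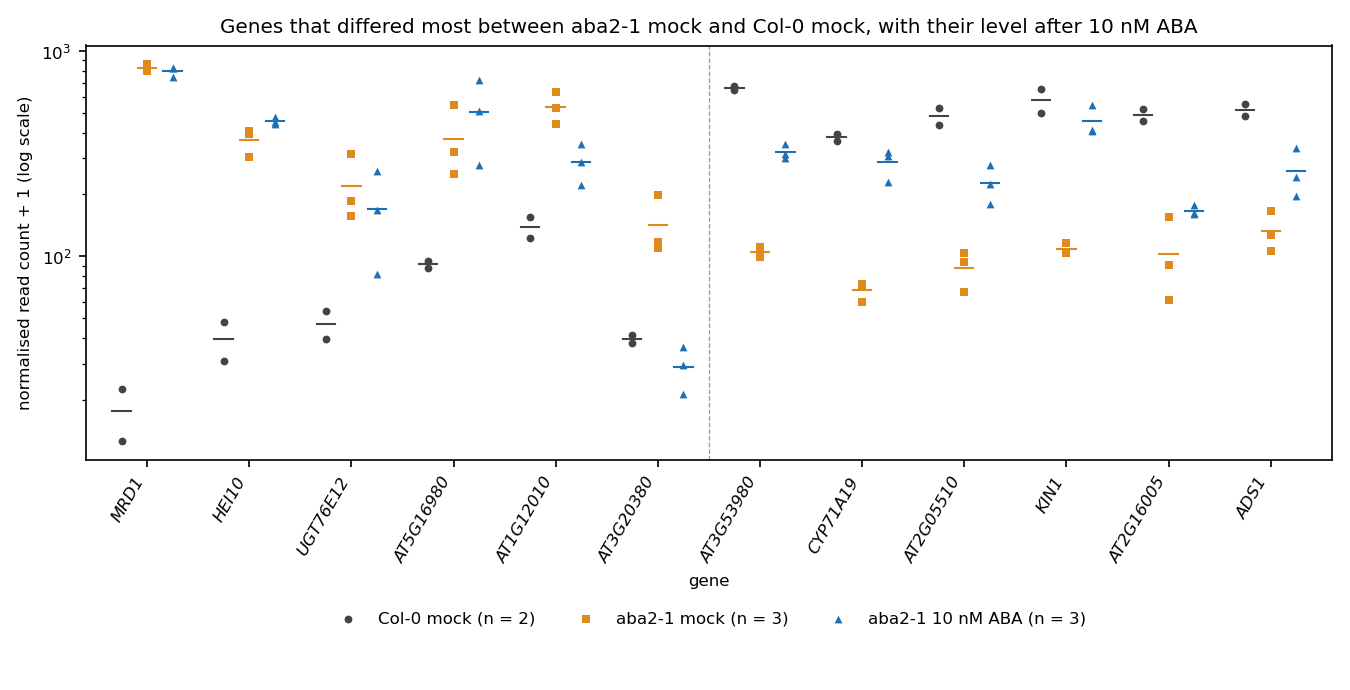
Normalised read count plus 1 (log scale) of the 6 largest rises (left of the dashed line) and 6 largest falls (right) of aba2-1 mock against Col-0 mock, in each sample of Col-0 mock (circles), aba2-1 mock (squares) and aba2-1 10 nM ABA (triangles); short bars are group means. KIN1, CYP71A19 and AT3G20380 lie near the wild type after ABA, and MRD1 and HEI10 are above the wild type in both mutant groups.

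A pair of loci were nearly silent in the mutant with and without ABA; they fell below the abundance limit of the rule and are named after their values were seen. AT3G55920 (chr3:20743443-20745153), a cyclophilin-like peptidyl-prolyl isomerase, had 183 and 208 reads in Col-0 mock, 1 read in each aba2-1 mock library, and 3, 1 and 1 reads after ABA (limma adjusted p = 2.4e-07). AT4G08093 had 57 reads in both Col-0 mock libraries and 0, 1 and 0 after ABA (limma adjusted p = 0.00018). In Col-0 10 nM ABA they had 197 and 192, and 27 and 59 reads. Both calls held with each library left out.

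Genes of auxin response and cell walls gave a mixed picture, also described after the values were seen. Of all tested loci 0.690% were lower and 0.913% higher. HAT2 (AT5G47370), an auxin-induced homeodomain factor, was 2214 and 2285 in Col-0 mock, 1221, 1122 and 1037 in the untreated mutant, and 969, 1288 and 1020.0 after ABA, a log2 difference of -1.05 (SE 0.15, limma adjusted p = 0.00051). IAA19, a repressor of the auxin response, was 553 and 504 in Col-0 mock, 268, 189.5 and 269 in the untreated mutant, and 187, 268 and 194 after ABA (difference -1.30, limma adjusted p = 0.00014). In both, all 6 mutant libraries lay below both wild-type ones, and both calls held with each library left out. Over 21 Aux/IAA genes tested, IAA19 was the 1 called lower and IAA28 the 1 called higher (0.45, limma adjusted p = 0.049), and the IAA28 call was lost without aba2-1 10 nM ABA replicate 2 (0.11) or 3 (0.17) or Col-0 mock replicate 1 (0.35) or 2 (0.32), and with the compared groups alone (0.095).

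Of 18 expansins, proteins that loosen the cell wall, 3 were lower and 1 higher (median -0.35), against 0.690% and 0.913% of all loci. None was lower without Col-0 mock replicate 1 or without Col-0 mock replicate 2, and 2, 2 and 1 were lower without aba2-1 10 nM ABA replicate 1, 2 or 3; 1 was higher each time. With the compared groups alone 2 were lower. EXPA16 was 677 and 603.5 in Col-0 mock, 577, 642 and 679.5 in the untreated mutant and 1136, 1083 and 1081 after ABA, a difference of 0.78 (limma adjusted p = 0.00054) that held with each library left out. EXPA1 was 2693 and 2280 in Col-0 mock, 1319, 1214 and 1332 in the untreated mutant and 1288, 1299 and 1028 after ABA, a difference of -1.05 (limma adjusted p = 0.014); its adjusted p was 0.28 and 0.082 when Col-0 mock replicate 1 or 2 was dropped, and 0.065 when this was done for aba2-1 10 nM ABA replicate 3. EXPA16 thus lay above, and EXPA1 below, both wild-type libraries. Of 25 xyloglucan endotransglucosylase/hydrolases, which remodel the wall, 2 were higher and 3 lower, and none was higher when ribosomal RNA rows were removed and the libraries rescaled. None was called without Col-0 mock replicate 1, and 1 was lower and none higher without Col-0 mock replicate 2. Without aba2-1 10 nM ABA replicate 1 or 3 there was also 1 lower and none higher, and without replicate 2 there were 2 lower and 1 higher. With the compared groups alone 2 were higher and 2 lower.

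Few members of the remaining lists were called, and over all tested loci the share was 1.60%. A list of 8 to 18 genes with no call or 1 call is too short to set apart from that share. None of 18 aquaporins, the water channels of plasma membrane and vacuole, was called, and 13 were within 2-fold; their median was 0.17. TIP2;3 was 292 and 321 in Col-0 mock, 77.9, 95.3 and 98.7 in the untreated mutant, and 232, 262 and 203 after ABA, with a final difference of -0.40 (interval -1.04 to 0.24). Of 10 guard cell and stomatal lineage markers none was called and 9 were within 2-fold; KAT1, a potassium channel of guard cells, was 508 and 560.1 in Col-0 mock, 430, 349 and 417.5 in the untreated mutant, and 370, 385 and 397 after ABA (difference -0.47, limma adjusted p = 0.22). None of 8 root markers and none of 8 cell cycle markers was called, with 7 of each within 2-fold. Of 11 leaf photosynthesis markers 1 was lower: RBCS1B, a small subunit of Rubisco, at 6073 and 7456 in Col-0 mock and 2867, 2870 and 2361 after ABA (difference -1.32, limma adjusted p = 0.02). It has near-identical family members, and RBCS3B differed by 0.23 and RBCS1A by -0.12, neither called. The RBCS1B call did not survive the loss of Col-0 mock replicate 1 (0.14) or 2 (0.28) or aba2-1 10 nM ABA replicate 3 (0.074).

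Whether 10 nM ABA moved the genotypes by different amounts was tested as an interaction. With limma no locus of 21023 passed (0%), and 654 had an unadjusted p under 0.05; edgeR called 0 and DESeq2 21. The standard error was larger than in the main comparison, with a median of 0.291 against 0.206. For KIN1 the response of the mutant exceeded that of Col-0 by 1.60 on the log2 scale (limma adjusted p = 0.48), and for RAB18 the genotypes differed by 0.31 (limma adjusted p = 1). A p over the threshold does not show that the genotypes responded alike.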

How the data were processed

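Seedling RNA was made into libraries with a stranded kit and sequenced on a NextSeq 500, per the labels' protocols. The submitters' processing notes name Trimmomatic 0.38, Salmon 1.3.0 and edgeR 3.28.0 with build TAIR10, with no role or order. The authors deposited 1 table of gene-level signal with 23686 rows, whose values are reads divided by a size factor that is fixed for the library; whole reads were recovered in 26 of 28 columns, and the other 2, whose factors are close to 1, stayed out of count tests. Of the rows, 5 name transgenes and no locus. Loci with a value of at least 10 in at least 2 samples were tested (21023) with limma 3.58.1 on log2(value + 1), using all 28 samples in 10 groups, an intensity trend and robust shrinkage. Tests were two-sided, with Benjamini-Hochberg adjustment over all tested loci. The script was tested on simulated data. Alternatives were edgeR and DESeq2 on the recovered reads, other filters, pseudocounts and scalings, group weights, a replicate block and leaving out libraries. Genes were named by rank of change among called loci with at least 5 CPM and no overlap, and by list (up to 4 members of smallest p, others for description). Of 186 list genes, 181 are in the table and 166 were tested. Coordinates and promoters are RefSeq's (TAIR10.1); the table holds no coordinates, and 23457 loci matched RefSeq by identifier. The comparison, lists and families were chosen with earlier results of these data known.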

Additional observations from a re-analysis of the deposited data

Results flagged for a closer look

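Reads of the PYL4-CA and MCCA-NOS rows, transgenes that only other lines of the series carry, appeared in some libraries of the treated mutant and not in Col-0 mock, which is why they are listed. The PYL4-CA row held 9 reads in aba2-1 10 nM ABA replicate 1 and 12 reads in replicate 2, against 0 in both Col-0 mock libraries and 2, 3 and 19 in the aba2-1 mock libraries. Replicate 3 of the treated mutant held 0, and the Col-0 10 nM ABA libraries held 6 and 3. The MCCA-NOS row held 5 reads in aba2-1 10 nM ABA replicate 2 and 0 in Col-0 mock and aba2-1 mock. The source of these reads was not tested.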

How the results depend on the processing

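Of the main comparison's 337 calls, the count was 1241 with the spread weighted by group, 543 with the compared groups alone and 768 with DESeq2, and leaving out 1 library at a time gave 46 to 266. For aba2-1 mock against Col-0 mock (124) these were 842, 363, 362 and 33 to 115. For aba2-1 10 nM ABA against aba2-1 mock (205), DESeq2 gave 350 and leaving out libraries 99 to 150. The interaction (0) gave 5 with weights, 6 with the compared groups alone and 21 with DESeq2. The cause was not tested, other than that leave-one-out fits have fewer samples. Other settings kept the main count within 1.5 times: 414 with edgeR, 326 after removing ribosomal RNA and rescaling, 318 to 342 with other pseudocounts and filters. The number of loci within 2-fold stayed between 14514 and 17637. Of 36 named calls, 12 passed with each library left out, and none reversed under any setting tried. With replicate number as a block the main count was 263. The labels do not say whether same-numbered samples were handled together. The difference between replicates 1 and 2 had a correlation of 0.134 between the 2 groups. For replicates 1, 2 and 3 of the mutant groups the values were -0.0815, -0.0734 and -0.333. Of these 36 calls the block ended 1, PYL5 (adjusted p 0.073); it also ended those of UGT71C2 (0.063) and IAA28 (0.079). For aba2-1 mock against Col-0 mock the block gave 128, for the response of the mutant 182 and for the interaction 0.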
